A study of Mus musculus with 3 samples.

Results

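The T cell receptor gene segments are the V, D, J and C segments of the mouse receptor loci. They were taken from the GENCODE annotation of mm10 by their segment type, which gave 226 of 55413 annotated genes: 144 V, 4 D, 70 J and 8 C segments. The alpha/delta locus on chromosome 14 holds 172 of them (115 V, 2 D, 53 J and 2 C), the beta locus on chromosome 6 holds 39 (22 V, 2 D, 13 J and 2 C), and the gamma locus on chromosome 13 holds 15 (7 V, 4 J and 4 C). All peaks and footprints of each locus, from its first to its last segment with 50 kb on each side, were taken from the larger deposited list of each library. The assay was DNase-seq, in which the enzyme DNase I cuts DNA that is not wrapped in nucleosomes. Clusters of cuts appear as peaks, and short stretches protected inside them as footprints. All 3 libraries form 1 group, primary natural killer cells of male adult B6CASTF1/J mice aged 2 months, which are first-generation hybrids of C57BL/6 and CAST parents. No treatment or engineered allele is named in the labels. The 3 biological replicates carry 1 donor label and separate biosample labels, so spread between them may be technical. No sort or gate is stated.

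T cells build their antigen receptor by cutting and joining 1 V, at some chains 1 D, and 1 J segment next to a C segment, a reaction carried out by the RAG recombinase. Accessible chromatin over a segment's promoter and its recombination signal is part of what lets RAG reach it, and enhancers near the C segments (E-alpha, E-delta, E-beta and the gamma enhancers) control both transcription and recombination. Natural killer cells are lymphocytes that kill without a rearranged antigen receptor, and their receptor loci are usually unrearranged, although unrearranged C segments can be transcribed in them.

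The sequences under strong sites show where footprints were called. They were read from the GRCm38 (mm10) reference assembly of RefSeq, plus strand, 5′ to 3′, and capitals mark bases inside footprints of at least 2 replicates. The first 4 are the strongest sites of the enhancer and promoter windows: the E-alpha site, in a region that begins 3215 bp past the end of Trac, at chr14:54227441-54227740; the E-beta site between Trbc2 and Trbv31 at chr6:41554401-41554640; the site between Trdc and the first J alpha segment at chr14:54152941-54153120; and the site before Trbd1 at chr6:41532681-41532980. The last 2 lie before V segments with a peak in every replicate, Trav17 at chr14:53806321-53806500 and Trbv12-2 at chr6:41118301-41118460. Both hold letters that resemble the CTCF site, described further on. Trbv1 had a higher mean percentile (78.2) but is not printed, and 33 of 228 bases before it lay in such footprints.
E-alpha: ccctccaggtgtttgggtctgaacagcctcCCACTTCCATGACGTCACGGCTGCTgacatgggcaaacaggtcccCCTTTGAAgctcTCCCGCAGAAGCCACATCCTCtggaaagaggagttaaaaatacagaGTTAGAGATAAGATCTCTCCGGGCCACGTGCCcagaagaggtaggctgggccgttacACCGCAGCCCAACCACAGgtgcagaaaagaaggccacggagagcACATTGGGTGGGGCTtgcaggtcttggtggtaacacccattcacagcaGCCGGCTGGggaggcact
E-beta: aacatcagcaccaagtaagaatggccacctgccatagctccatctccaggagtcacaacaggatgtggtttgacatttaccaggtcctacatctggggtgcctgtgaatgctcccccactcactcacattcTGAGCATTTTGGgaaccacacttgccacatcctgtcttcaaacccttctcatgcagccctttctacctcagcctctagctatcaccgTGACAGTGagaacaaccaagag
Trdc to first Traj: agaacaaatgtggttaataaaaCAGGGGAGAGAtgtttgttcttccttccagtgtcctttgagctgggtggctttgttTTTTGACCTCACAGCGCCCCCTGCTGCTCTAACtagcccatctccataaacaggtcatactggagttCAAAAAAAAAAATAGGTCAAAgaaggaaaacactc
before Trbd1: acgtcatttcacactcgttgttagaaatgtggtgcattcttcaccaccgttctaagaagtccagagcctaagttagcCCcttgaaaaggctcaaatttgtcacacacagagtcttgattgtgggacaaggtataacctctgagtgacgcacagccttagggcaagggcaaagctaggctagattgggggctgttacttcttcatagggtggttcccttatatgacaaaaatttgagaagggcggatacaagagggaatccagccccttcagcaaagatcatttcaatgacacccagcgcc
Trav17: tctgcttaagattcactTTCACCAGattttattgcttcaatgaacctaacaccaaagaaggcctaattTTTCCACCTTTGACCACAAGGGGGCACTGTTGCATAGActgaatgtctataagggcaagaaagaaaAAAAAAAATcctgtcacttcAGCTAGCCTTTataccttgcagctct
Trbv12-2: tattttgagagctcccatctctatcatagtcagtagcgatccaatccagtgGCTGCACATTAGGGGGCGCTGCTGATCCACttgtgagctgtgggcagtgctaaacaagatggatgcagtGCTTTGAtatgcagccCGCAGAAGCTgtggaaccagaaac
Of the 300 bases shown at E-alpha, 128 lay in footprints of at least 2 replicates, against 20 of 240 at E-beta, 65 of 180 between Trdc and the J alpha segments and 2 of 300 before Trbd1. Before Trav17 the count was 66 of 180, and before Trbv12-2 47 of 160. Before Trbd1, replicates 1, 2 and 3 taken alone had 23, 7 and 35 bases in footprints. The sites differ in signal, and its part in these counts was not tested.

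Replicates 1, 2 and 3 held 40484, 84564 and 81854 peaks genome-wide, so replicate 1 has the shortest list and limits every count over all 3. Read depth is unknown. The natural killer label was checked against 12 marker genes, of which 9, 12 and 12 had a peak at a start in replicates 1, 2 and 3. Klrb1c, Klrd1 and Tbx21 lacked one in replicate 1, and Ncr1, Prf1, Gzmb, Eomes and Il2rb were among those with one in all. Their median percentile among all peaks of the library was 77.5, 73.3 and 81.1. Of all protein-coding genes, 52.8%, 60.1% and 59.3% had a peak at a start in the same libraries. Markers of other lymphocytes had peaks too. Of 18 T cell genes, 5, 15 and 10 had a peak, at a median percentile of 60.5, 53.2 and 58.5. Cd3d, Cd28, Lef1, Ubash3a and Icos had one in all 3 replicates, and Cd4, Cd8a and Trat1 had none in any. Of 12 B cell genes, 8, 12 and 11 had a peak, at a median percentile of 33.6, 84.3 and 78.6. The summed signal, which is comparable only within a library, was 8.91, 18.5 and 18.6 for the T cell genes, 7.84, 52.8 and 29.3 for the B cell genes and 21.2, 30.2 and 59.2 for the natural killer genes. The part of T or B cells in the peaks described here was not tested, and in bulk libraries fewer cells with an accessible site and less access per cell cannot be told apart.

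Few segments were accessible at their start. A start counted as accessible where a peak touched the 500 bp on either side of it, by at least 1 base. That held for 9, 38 and 37 of the 226 segments in replicates 1, 2 and 3, against 25.7%, 30.8% and 30.2% of all other annotated genes in the same libraries (3.98%, 16.8% and 16.4% of the segments). In all 3 replicates 9 segments were accessible (3.98%), against 25.3% of all other genes and 52.5% of protein-coding genes (52.8%, 60.1% and 59.3% by replicate, and 61.7% in at least 1). In at least 1 replicate a peak was found at 44 segments (19.5%, all other genes 32.0%), and at the other 182 in none. Taken over all classes, segments were thus accessible less often than genes at large in each library. They also differ from genes at large in having short, duplicated sequences. The classes, and V segments by how unique their sequence is, are described further on.

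**Figure D1:**
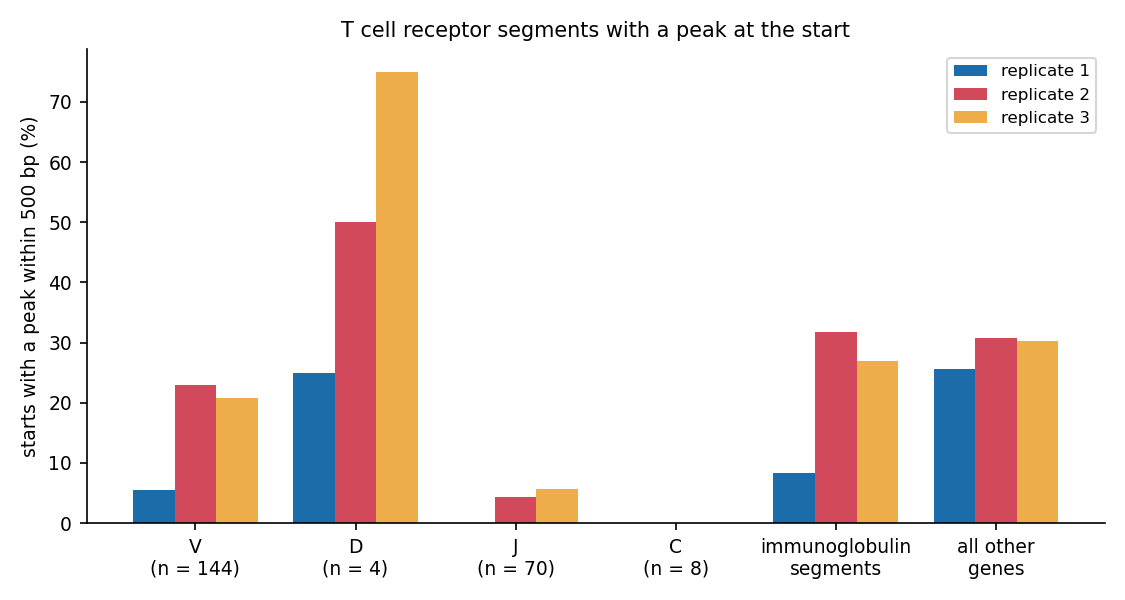
Share of segment starts with a peak within 500 bp (y axis, percent) for V, D, J and C segments, immunoglobulin segments and all other genes, with 1 bar per replicate. No C segment has a bar, J segments reach 5.71%, and V segments lie between 5.56% and 22.9%.

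The classes differed. V segments were accessible in 8, 33 and 30 of 144 cases, D segments in 1, 2 and 3 of 4, J segments in 0, 3 and 4 of 70, and C segments in 0 of 8 in each replicate. By locus, all 3 replicates shared 4 of 172 segments at alpha/delta, 5 of 39 at beta and 0 of 15 at gamma. No test was run on these counts, because segments of a locus share their sequence and their neighbours and are not replicates.

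Seen as regions, with overlapping peaks of the 3 replicates joined, the loci held 100, 36 and 20 peak regions at alpha/delta, beta and gamma, of which 28, 11 and 5 were found in all 3 replicates. The share found in all 3 was 28.2% of 156, against 35.5% of 98643 regions genome-wide. Of the remainder, 60 regions were found in replicates 2 and 3 and not in replicate 1 (genome-wide 29.8%), and 51 were found in 1 replicate (32.7%, genome-wide 33.7%). The number of peaks per Mb relative to the genome was 1.03, 1.29 and 1.52 at alpha/delta, 1.11, 1.14 and 1.14 at beta, and 1.19, 1.94 and 2.35 at gamma. The gamma value rested on its flanks: without the 50 kb on each side its mean ratio was 0.975 instead of 1.83 ± 0.59 (SD, n = 3). The loci were therefore neither devoid of peaks nor evenly covered, and the position of the peaks carries most of the information.

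**Figure D2:**
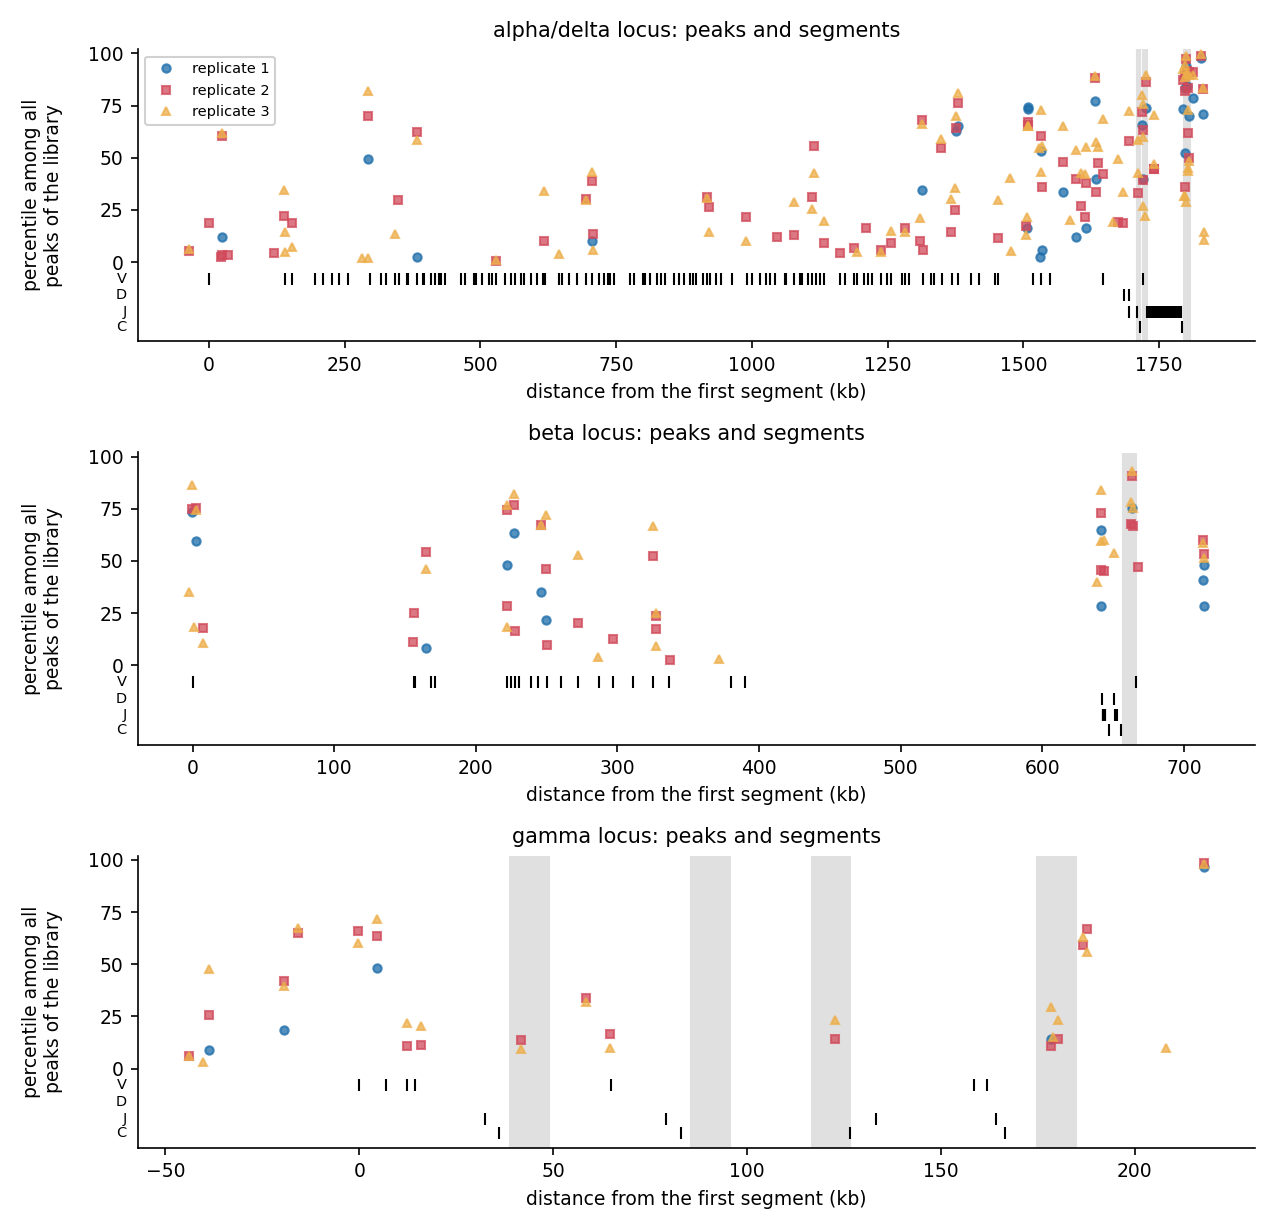
Percentile among all peaks of its library of the strongest peak in each region (y axis, 100 is the strongest) against distance from the first segment in kb (x axis) at the 3 loci, with 1 symbol per replicate, segments as ticks by class and enhancer windows in grey. The highest points of the alpha/delta locus gather at its C segment end, and a stretch of 267 kb of the beta locus has no point.

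At the alpha/delta locus the peaks were concentrated at the delta and C alpha end. In 6 consecutive bins of 300 kb from the first V segment (the last ending at Trac), 12, 4, 5, 11, 15 and 35 regions were found, and 2, 1, 1, 0, 3 and 13 of them in all 3 replicates. The longest stretch without a peak between the outer segments ran over 211 kb and 20 segments, chr14:53135144-53345663, mostly in the third bin. At beta the longest such stretch ran over 267 kb, chr6:41262941-41530121, from within the V array towards Trbd1. It covered 2 V segments and 8 protein-coding genes. At gamma it ran over 57.6 kb, chr13:19242861-19300440.

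The strongest site of all the enhancer windows was E-alpha, the enhancer downstream of the C alpha gene Trac. Its peak had a signal of 6.38, 14.8 and 21.6 in replicates 1, 2 and 3, the deposited signal being comparable only within a library. It stood at percentile 94.2, 97.3 and 99.0 of all peaks (96.8 ± 2.41, SD, n = 3), which is rank 2337, 2268 and 857. All 3 replicates placed it high. Relative to the start peak shared by Dad1 and Abhd4, of which Dad1 is known to be expressed in most cells, its signal was 0.749, 0.731 and 0.86 within each library.

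The E-alpha peak was one of many. Between the start of Trac and the start of Dad1, 33.3 kb that hold E-alpha and what is known as the locus control region of the alpha gene, 14 regions were found, 7 of them in all 3 replicates at mean percentiles from 74.4 to 96.8. Inside Trac, a region at chr14:54222281-54222760 had a signal of 2.14, 4.46 and 8.28 (percentile 84.5 ± 9.81, SD, n = 3). Past its end, a region at chr14:54225081-54225420 had 3.34, 5.16 and 10.1 (88.9 ± 5.46). Next to the main E-alpha peak, chr14:54227941-54228380 had 3.53, 6.64 and 6.71 (88.8 ± 3.84). Of these, the region inside Trac stood below the one past its end in each library, whereas the order of the latter and the region next to E-alpha differed between libraries. Farther on, chr14:54233221-54233580 had 1.89, 6.47 and 6.16 (83.7 ± 11.7), and a site beyond the window, within Dad1, chr14:54239141-54239340, had 2.62, 6.47 and 6.06 (86.4 ± 6.88). Thus the chromatin from within Trac to Dad1 was accessible at several separate points in every library, although the start of Trac itself had no peak within 500 bp in any.

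**Figure D3:**
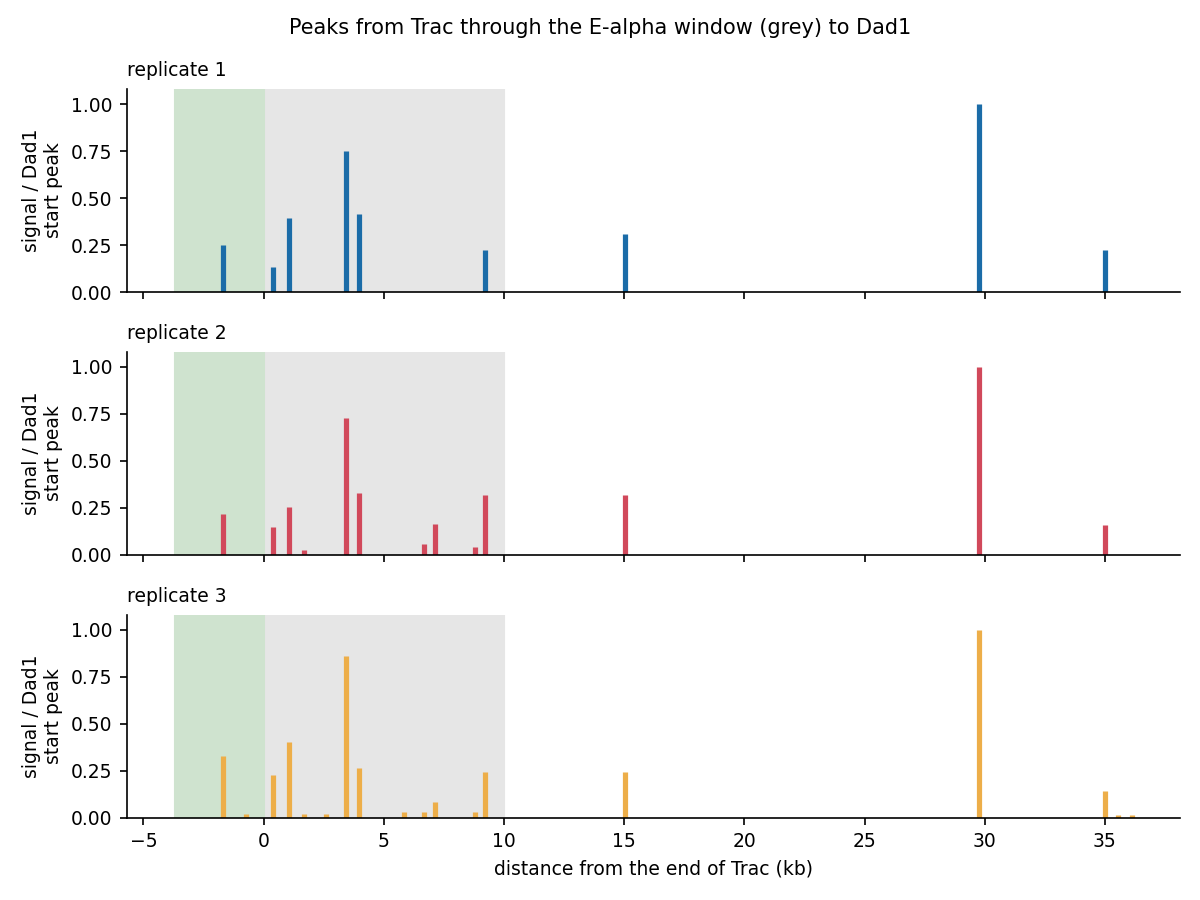
Signal of each peak relative to the Dad1 and Abhd4 start peak of the same library (y axis) against distance from the end of Trac in kb (x axis), with 1 panel per replicate, Trac in green and the E-alpha window in grey. The E-alpha peak, at 0.749, 0.731 and 0.86, is the highest after the start peak in each panel.

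Footprints inside the E-alpha peak covered several matches to motifs of factors known to bind such enhancers. Motifs were searched as fixed letters on both strands, and a match was counted in a footprint where at least 50% of its bases were inside. The cyclic AMP response element TGACGTCA, bound by CREB and ATF proteins, and the GATA motif AGATAA each lay in footprints of all 3 replicates. The TCF/LEF motif CTTTGA and the RUNX motif TGTGGT, which reads as ACCACA on the strand shown, lay in footprints of replicates 2 and 3. An E-box CACCTG, which reads as CAGGTG on the strand shown and overlaps the RUNX match by 2 bases, was 50% inside these footprints, with its other bases in lower case above. The cyclic AMP element was found in 2 of the 156 whole regions (1.28%), against 1.03% genome-wide. A match shows letters and a footprint shows protection, and neither identifies the protein.

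E-beta, the enhancer between Trbc2 and Trbv31, ranked lower. Its strongest peak had a signal of 2.30, 6.08 and 8.71, at percentile 75.5, 90.5 and 93.1 (86.4 ± 9.52, SD, n = 3) and 0.27, 0.3 and 0.347 of the Dad1 and Abhd4 start peak. Replicate 1 was the lowest of the 3 in percentile. In percentile the E-alpha peak was above the E-beta peak in each of the 3 libraries, and an exact sign-flip test of 3 pairs cannot go below p = 0.25. The E-beta peak held 2 RUNX matches, each in a footprint of replicate 3 only. Weaker regions on either side, chr6:41553461-41553680 and chr6:41554881-41555100, were found in replicates 2 and 3 and not in 1.

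E-delta, between the last J delta segment and Trdc, was weak: no peak in replicate 1, and 0.534 and 1.15 in replicates 2 and 3 (percentile 33.1 and 58.4). The C delta gene Trdc nevertheless had peaks inside its body in all 3 replicates, at chr14:54146466-54146760 with 1.62, 1.78 and 2.96 (72.4 ± 7.16, SD, n = 3) and at chr14:54147601-54147820 with 0.861, 1.26 and 2.35 (59.6 ± 18.3). The interval from Trdc to the first J alpha segment, where the T early alpha promoter that starts J alpha transcription is known to lie, held a stronger site. Its signal was 2.17, 4.06 and 6.03, at percentile 74.0, 86.2 and 89.6 (83.3 ± 8.17). The site inside Trac stood at 84.5, a difference smaller than either spread. This site, chr14:54152941-54153140, lies 2993 bp before Traj59, the first J alpha segment of the annotation that is not a pseudogene. The sequence printed above holds AGGGGGCGCTG on the minus strand, inside a footprint of at least 2 replicates.

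The gamma enhancers were searched in 10 kb downstream of each C gamma gene and gave low values. Past Tcrg-C4 the strongest peak had a signal of 0.531, 0.345 and 0.513 (percentile 19.3 ± 8.64, SD, n = 3), although the 3 replicates did not place it at the same spot. Past Tcrg-C1 it was absent in replicate 1 and had 0.339 and 0.309 in replicates 2 and 3, and past Tcrg-C2 it was absent in replicate 1 and had 0.345 and 0.448. Past Tcrg-C3 no replicate had a peak. The windows of Tcrg-C1 and Tcrg-C2 had 36.3% and 40.5% unique 36-base words at their regions, and whether reads were lost there was not tested. Window size mattered: with 20 kb the value past Tcrg-C1 was 32.7 instead of 11.5, and past Tcrg-C4 48.0 instead of 19.3.

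The C segments encode the constant domain of each receptor chain. None of the 8 had a peak within 500 bp of an annotated start in any replicate: Trac and Trdc at alpha/delta, Trbc1 and Trbc2 at beta, and Tcrg-C1, Tcrg-C2, Tcrg-C3 and Tcrg-C4 at gamma. Peaks inside gene bodies were found at Trac and Trdc alone, in 6 regions, 3 of them in all 3 replicates. In recombined T cells a C segment is transcribed from a V promoter far upstream, so its annotated start is not where transcription begins.

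The D segments lie between V and J at the beta and delta loci. Trbd1 (chr6:41533201-41533212) was the D segment with a peak in every replicate, with a signal of 1.57, 1.90 and 3.88 (percentile 74.0 ± 9.78, SD, n = 3). The middle of the peak lay at -381, -381 and -401 bp from its start, where the promoter of D beta 1 is known. Trbd2 (chr6:41542163-41542176) had a peak in replicate 3 only, with 0.981. Trdd2 (chr14:54122226-54122241) had none in replicate 1 and 1.06 and 1.98 in replicates 2 and 3. Trdd1 had no peak in any replicate.

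The J segments were almost all without a peak. Over the 64.4 kb from the first J alpha segment to Trac, which hold 51 J alpha segments, replicate 1 had no region and replicates 2 and 3 had the same 2, both at Traj49. Its stronger peak had a signal of 0.71 and 1.83. At beta, Trbj1-4 and Trbj1-5 shared a peak of 0.73 and 1.22 in replicates 2 and 3, and just outside, Trbj1-6 was touched by it in replicate 3 alone. No J gamma or J delta segment had a peak. The J alpha array is bounded on both sides by sites found in all 3 replicates, the one after Trdc and those in Trac.

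Among V segments, which encode most of the antigen-binding face and carry their own promoter, 8 had a peak in all 3 replicates. At beta, Trbv1 (chr6:40891229-40891885) had a signal of 2.11, 2.06 and 4.60, at percentile 78.2 ± 7.2 (SD, n = 3), the highest mean of any segment. Trbv12-2 had 1.51, 2.24 and 3.34 (74.0 ± 9.49). Trbv12-1 had 1.03, 2.01 and 2.47 (66.4 ± 15.8). Trbv15 had 0.613, 0.743 and 1.95 (46.6 ± 25.2), the lowest percentile of these 4 in each library, with a wide spread between libraries. The next one, Trbv23, lacked a peak in replicate 1 and had 0.879 and 1.57 in the other two, so the boundary between the groups rests on replicate 1.

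At alpha/delta, Trav17 (chr14:53806639-53807115) was the highest, with a signal of 1.59, 2.20 and 3.17 (74.2 ± 8.14, SD, n = 3). Trdv2-2, a V delta segment, had 1.16, 1.15 and 2.05 (62.3 ± 9.97). Trav10d had 0.366, 1.22 and 1.15 (41.2 ± 33.4), and Trav6n-6 had 0.484, 0.612 and 0.724 (30.6 ± 17.9). Both of these were among the weakest peaks of replicate 1. Trav3-4 came next, absent in replicate 1 and at 0.951 and 1.18 in replicates 2 and 3. By name, 3 of 108 Trav and 1 of 5 Trdv segments were accessible in all 3 replicates.

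At gamma no V segment had a peak in replicate 1. In replicates 2 and 3, Tcrg-V7 had 1.39 and 1.23, Tcrg-V6 had 0.313 and 0.428, and Tcrg-V3 had 0.365 and 0.316. Tcrg-V7 thus lay well above the other two in both libraries. The strongest peak at the gamma locus belonged to the start of the neighbouring gene Stard3nl, with 7.79, 18.0 and 18.1, and within the array a region at chr13:19182361-19182600, between segments, was found in all 3 replicates with 1.03, 1.28 and 1.92 (61.2 ± 11.9, SD, n = 3).

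Peaks at V segments lay mostly before the segment, where V promoters are. The middle of the strongest peak lay before the start in 7 of 8, 30 of 33 and 28 of 30 V segments in replicates 1, 2 and 3, at a median of -126, -81 and -89 bp, and within 200 bp before it in 4, 25 and 23. Trbv12-1 and Trbv12-2 stood apart, with the middle between -490 and -470 bp from the start in all replicates. Their regions ended 370 and 391 bp before the segment. Over the start itself Trbv12-1 had a weaker peak of 0.476 and 0.395 in replicates 2 and 3, and Trbv12-2 one of 0.365 in replicate 2 alone. The windows were symmetrical around the start, so the side was not fixed by the rule.

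**Figure D4:**
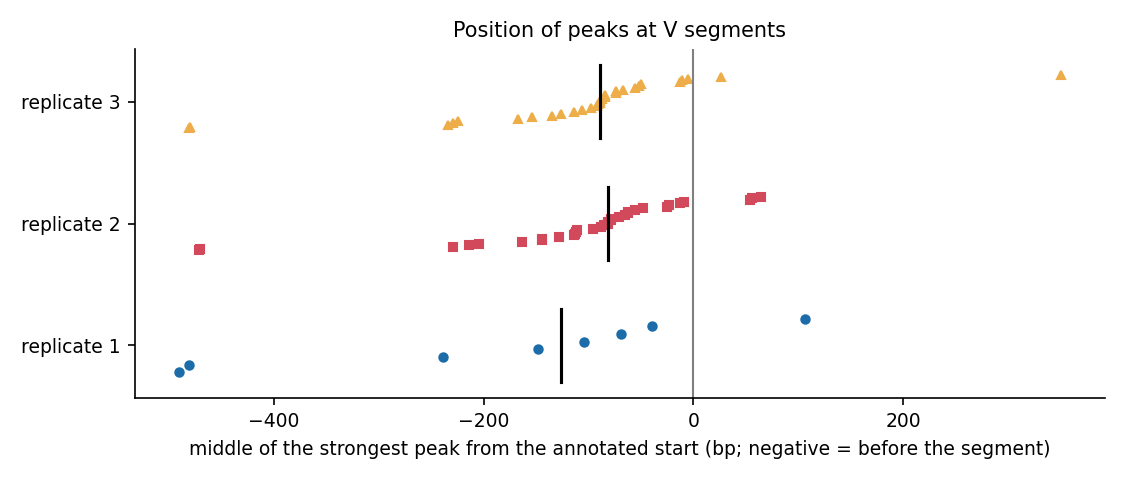
Distance in bp of the middle of the strongest peak from the annotated start of each V segment with a peak (x axis, negative before the segment), with 1 row per replicate and the median as a black line. The medians lie at -126, -81 and -89 bp, and few points fall after 0.

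V segments are duplicated, and reads that fit several copies are dropped in some pipelines. Its part in the low counts was not tested, but the values of both can be set side by side. Only 49.8% of the alpha/delta locus starts a 36-base word that occurs once in the reference, against 76.5% at beta, 74.7% at gamma and 82.5% genome-wide. The alpha/delta bins with the fewest regions, the second and the third, were also those with 12.8% and 15.3% unique words. Of 37 V segments with at least 90% unique words around the start, 6, 14 and 12 had a peak, of 31 with 50 to 90% 1, 10 and 10, and of 76 under 50% 1, 9 and 8. In at least 1 replicate these groups had a peak at 40.5%, 35.5% and 14.5% of starts, against 32.0% of all other genes. In all 3 replicates the counts were 6, 1 and 1, against 25.3% of all other genes. The lower share of the segments as a whole thus did not hold for the most unique V segments in at least 1 replicate. Counted over unique bases alone, the ratio of alpha/delta peaks per Mb to the genome was 1.77, against 1.28 with all bases. Whether the authors kept reads that map to several places is not given in the sources used here. In these hybrid mice, reads of the CAST allele that differ from the reference may map less well, which was not tested.

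**Figure D5:**
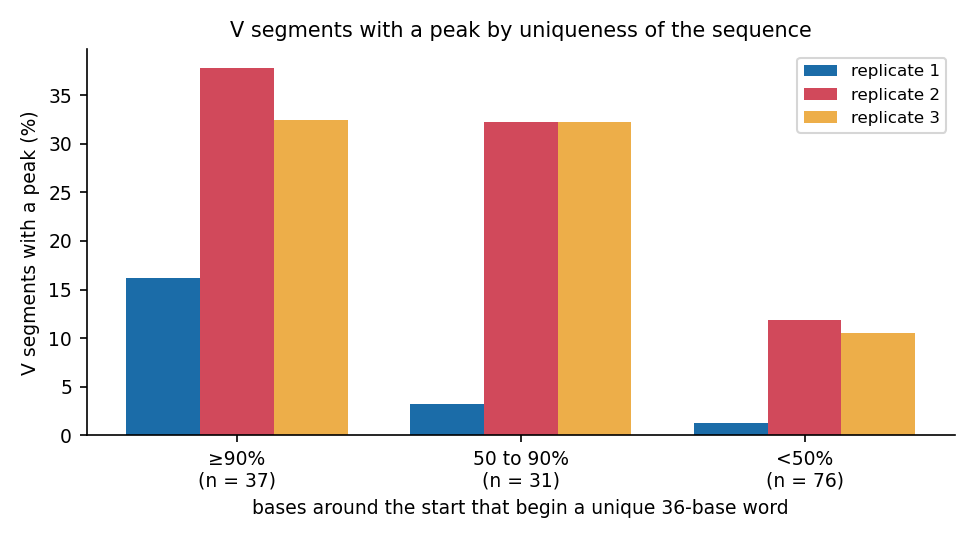
Share of V segments with a peak at the start (y axis, percent) by the share of bases around the start that begin a unique 36-base word (x axis), with 1 bar per replicate. The share with a peak is lowest in the 76 segments under 50% in every replicate.

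Many V peaks of the alpha/delta locus held a match to the motif of CTCF, the protein that anchors chromatin loops and is known to shape the receptor loci. A consensus of 12 positions, 8 of them fixed, was found within 200 bp around the middle of 24 of 156 regions (15.4%, against 11.9% of regions genome-wide), of which 14 were among the 46 V segment regions (30.4%). It was found in 5 of 50 regions between segments and in 0 of 25 in enhancer windows. Inside the regions themselves lay 23 matches, 11 of them in footprints of at least 2 replicates. By locus, 18 were at alpha/delta, 2 at beta and 3 at gamma. Those at beta lay between segments, and those at gamma in flanks or at the start of Stard3nl. No V segment region of beta or gamma thus held a match inside it. Some matches at alpha/delta are copies, such as those of Trav10 and of Trav12. Apart from the cyclic AMP element, whose 2 matches both lay in footprints of all replicates, CTCF had the highest share of matches in footprints of at least 2 replicates (47.8%) among the motifs searched, against 11.2% for RUNX and 3.49% for the ETS motif AGGAAG. The RUNX and ETS motifs are shorter and had 80 and 86 matches. The same shares were not computed genome-wide, so whether the ranking is particular to these loci is not known. The following are plus strand stretches of 30 bases with the match in capitals. They were chosen after their values were seen, to show matches in footprints of at least 2 replicates and the copies of Trav10.
Trav17, chr14:53806402-53806413: cacctttgaCCACAAGGGGGCactgttgca
Trav6n-6, chr14:53132569-53132580: agctcctgtCCACCAGGGGGCgcagatgcc
Trav3-4, chr14:53776875-53776886: agaagctgtCCACAAGGGGGCagagcatct
Trav10d, chr14:52810778-52810789: gagaagtggCCACAAGATGGCagtagcgca
Trav10n, chr14:53121895-53121906: gagaagtggCCACAAGATGGCagtagcgca
Trav10, chr14:53505571-53505582: gagaagtggCCACAAGATGGCagtagtgca
between segments, chr14:54059964-54059975: gtcaggggaCCACTAGATGGCagcagatgg
within Dad1, chr14:54239239-54239250: aaggtgcatCCACTAGATGGCggcagagtg
near Trbv1, chr6:40893723-40893734: agggtctttCCACCAGGGGGCaccatttgc
near Trbv14, chr6:41137173-41137184: tgtcactggCCACTAGAGGGCactgtggat
The matches before Trav17, at the site between segments, within Dad1 and near Trbv1 and Trbv14 lay in footprints of all 3 replicates. Trav10d, Trav10n and Trav10 carry the same 12 letters. Over 200 bases around the match they were 86.0% to 88.5% identical, and 35.0%, 34.8% and 47.5% of the 36-base words around their starts were unique.

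The CTCF matches were mostly on 1 strand. At alpha/delta all 18 matches in regions were on the plus strand, which is also the strand of most segments there. In the sequence of that locus as a whole, accessible or not, 70 of 83 matches (84.3%) were on the plus strand, so most matches of the locus lie on that strand whether or not a peak covers them. At beta both matches and at gamma 2 of 3 were on the plus strand, against 49.3% of 12287 matches in all regions genome-wide. The site between segments at chr14:54059881-54060100, before Trdv4, was the strongest region with a match between alpha/delta segments, with a signal of 2.48, 4.91 and 5.88 (85.0 ± 6.76, SD, n = 3).

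The stretch AGGGGGCGCTG, which resembles the core of the CTCF site, is the longest that the regions before Trbv12-2 and after Trdc share on either strand, and was searched after these sequences had been seen. It was found in 2 of 156 regions (1.28%, against 0.427% genome-wide), these same regions, which the choice of the letters fixed. Neither held the CTCF motif of 12 letters, and in both the core lay in a footprint of at least 2 replicates.

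The other motifs are given with the share of the 156 regions first and the share genome-wide second. RUNX matches were found in 50 of 156 regions (32.1%, genome-wide 21.9%), ETS in 66 (42.3%, 32.5%), the TCF/LEF motif in 26 (16.7%, 12.3%) and GATA in 20 (12.8%, 6.75%). In enhancer windows ETS matches were found in 8 of 25 regions (32.0%) and RUNX matches in 11 (44.0%). Between segments the RUNX share was similar, 21 of 50 regions (42.0%). The E-box motifs CACCTG and CAGCTG (34.6%, 30.0%) were also found more often, while the AP-1 motif TGANTCA (7.05%, 8.57%), the IRF motif (2.56%, 2.74%) and the T-box motif AGGTGTGA (1.28%, 1.61%) were found less often. The heptamer CACAGTG of recombination signals, which RAG recognises, was found in 15 regions (9.62%, 6.96%). These shares were not tested, since regions of a locus include copies of one another.

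Footprints were counted over each locus, inside peaks or not. In the alpha/delta locus 72, 187 and 215 footprints were called, at beta 26, 63 and 57, and at gamma 8, 44 and 40. Those in peaks were 66, 163 and 190 at alpha/delta, 26, 58 and 52 at beta, and 3, 38 and 37 at gamma. The values per kb of peak count only those in peaks, so the gamma value of replicate 1 rests on 3 footprints. Per kb of peak, alpha/delta had 10.7 ± 0.572 (SD, n = 3), beta 9.81 ± 1.03 and gamma 8.16 ± 2.56, against 10.8 ± 0.926 genome-wide. Beta (8.83, 10.9 and 9.72) and gamma (5.54, 10.6 and 8.32) were below the genome (9.76, 11.4 and 11.3) in each library, whereas alpha/delta (10.2, 10.5 and 11.3) was above it in replicate 1 and below it in replicate 2. The E-alpha window alone held 20, 36 and 37.

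The immunoglobulin segments, the B cell counterpart built in the same way, were the most similar set for comparison. Of 264, 22, 84 and 71 were accessible in replicates 1, 2 and 3 (8.33%, 31.8% and 26.9%), and 21 in all 3 (7.95%), against 9 of 226 (3.98%) of the T cell receptor segments. By class, 22, 78 and 68 of 218 V segments had a peak, 0, 4 and 2 of 14 J segments, none of 19 D segments, and 2 of 13 C segments in any replicate. Of the 4 T cell receptor D segments, 1, 2 and 3 had one. In each library the share was higher at immunoglobulin than at T cell receptor segments. It was not tested, and B cell marker genes also had peaks in these libraries, as given above. Of 44 T cell receptor pseudogenes, which are not among the members, 1, 4 and 4 had a peak.

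The other genes that a T cell receptor needs are set beside the 52.8%, 60.1% and 59.3% of protein-coding genes with a peak at a start in replicates 1, 2 and 3. Of 11 genes of the receptor complex and its signalling, 5, 9 and 8 had one. Such a peak was thus rarer than at protein-coding genes in replicate 1 and more frequent in replicates 2 and 3. The kinases Lck (percentile 82.2 ± 3.99, SD, n = 3) and Zap70 (76.7 ± 6.74), the adaptor Lat (76.3 ± 10.5) and Cd247, whose zeta chain also serves natural killer receptors (65.3 ± 18.2), had one in all 3. So did Cd3d, with a signal of 3.99, 0.84 and 0.935, at percentile 86.6, 50.6 and 52.1. Replicate 1 was the highest there, in percentile as in signal. Cd3e had a peak in replicate 2 only, Cd3g, Lcp2 and Themis in replicates 2 and 3, and Ptcra, the pre-T cell receptor chain, and Trat1 in none.

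Of 12 recombination genes, 9 had a peak in all 3 replicates (protein-coding genes 52.5%) and 3 in none. The 3 without a peak are known for their activity in developing lymphocytes: Rag1 and Rag2, which encode the recombinase, and Dntt, which adds bases at the joints. The general DNA bending and repair genes were high, from Xrcc5 at percentile 89.4 ± 5.28 to Hmgb2 at 99.8 ± 0.231 (SD, n = 3). Of 15 genes for factors of receptor enhancers, 13, 15 and 14 had a peak, against the shares of protein-coding genes given above. Ets1 (97.1 ± 1.38), Creb1 (97.4 ± 1.01), Runx3 (94.7 ± 2.43) and Ctcf (93.1 ± 2.17) were high, and the lymphoid factors Gata3 (65.2 ± 8.27) and Lef1 (70.0 ± 8.27) lower. Bcl11b had no peak in replicate 1 and Tcf7 had one in replicate 2 alone.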

How the data were processed

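DNase-seq was analysed in 3 libraries of 1 group, with groups and replicate numbers taken from the labels. Per the file headers, peaks, footprints and cut rates were called per library from filtered alignments to mm10. For the aligner, the callers and their settings: not given in the sources used here. The authors deposited a signal per peak, whose reference is not stated, so it was used as a percentile within a library (its rank among all peaks of that library, ties averaged) or as a ratio within it. The deposited cut-rate intervals carry a q-value of up to 0.05, which served to look for sub-threshold bases: of 108 regions without a peak in replicate 1, 3 held such bases there. The deposited footprint score is the constant 0.01, so only intervals were used.

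Segments came from GENCODE vM21, and all transcript starts of a gene were used. Peaks of the 3 replicates that overlapped were joined into regions. Unique 36-base words were counted over GRCm38 on both strands. Overlaps were computed in Python 3.11.15 with numpy 2.4.6 and pandas 2.3.3, tested on simulated data and checked with bedtools 2.31.1, with 0 differences. No test was run: with 1 group and 3 replicates an exact sign-flip test cannot go below 0.25.

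Named were all C and D segments, V and J segments with a peak in all 3 replicates (up to 5 per class and locus by mean percentile), or else in 2 (up to 3), the next segment outside, all enhancer windows, other genes whose start within the loci had a peak in all 3, and genes of the lists. The members, lists, motifs and enhancer windows were chosen with earlier results of these data known. Alternatives were other start widths, flanks, windows and thresholds, the smaller peak list, the better-scoring 50% of peaks, and leaving out each replicate.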

Additional observations from a re-analysis of the deposited data

How the results depend on the processing

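Of 116 alternative values of 29 results, 90 differed from the value reported by less than its spread, or for counts by at most 1.5 times, and 26 by more. No paired analysis was possible because the labels give no second group to pair with; sites were compared within a library instead. Replicate 1 set the counts over all 3 replicates. Leaving out 1 replicate in turn gave 9 to 31 segments with a peak in each replicate kept, 28 to 66 regions at alpha/delta, 11 to 21 at beta and 4 to 17 at gamma, the highest each time without replicate 1. The 9 segments became 20 with 2500 bp on each side of the start, 5 with the better-scoring 50% of peaks, 31 with a peak in at least 2 replicates and 44 in at least 1. With the better-scoring 50%, regions in all 3 replicates fell to 17, 5 and 1 at alpha/delta, beta and gamma, and with the smaller list of peaks to 6 at beta and 2 at gamma. Peaks per Mb relative to the genome were 1.77 at alpha/delta and 1.25 at beta over unique bases alone, 1.06 at beta with 100 kb on each side, 0.963 at beta with the smaller list, and 0.975 at gamma without flanks. With the smaller list the mean percentile was 63.8 before Trbd1, 1.58 past Tcrg-C1, 5.8 past Tcrg-C2 and 10.1 past Tcrg-C4, and with a window of 20 kb 32.7 past Tcrg-C1 and 48.0 past Tcrg-C4. The cyclic AMP element was in 1 region within 200 bp and in 2 over whole regions, and the CTCF core of 11 letters, added after the data were seen, in 2 regions against 24 for the motif of 12. Apart from the added core and the rules whose construction changes what is counted, the cause of these moves was not tested. Read depth is unknown, so a missing peak does not show closed chromatin.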
